A study of Homo sapiens with 6 samples.

Results

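To examine the transcript of the silenced gene itself, the cytidine sites that ac4C-seq listed in NAT10 mRNA were described. NAT10 is the N-acetyltransferase that was knocked down. The members were the 2 listed positions in NAT10, at position 34127524 in the table of control cells and at position 34146119 in the table of NAT10 knockdown cells, both on chromosome 11 (GRCh38 as named in the submitters' notes). They are 2 of 2353 sites listed over both tables, and no other site of any base was listed inside the NAT10 gene. The positions differ, so the level in control cells and the level in NAT10 knockdown cells were not compared as one site.

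The samples were PANC-1 cells, a long-established human line of pancreatic cancer, with 3 control and 3 NAT10 knockdown samples. The sample titles name short hairpin RNA (shControl, shNAT10), while the protocol text and the column names also speak of siRNA, so the names control and NAT10 knockdown are kept here. The labels do not say which hairpin or siRNA was used, nor whether replicates were separate cultures. The p-values of the quasi-binomial model and the permutation test measure only the spread between these samples. Those of Fisher's exact test and the exact conditional test count reads and do not measure that spread. Captured messenger RNA of each sample was split, and only the larger share was reduced with the borohydride NaBH4 before sequencing. Each sample therefore gave a treated and an untreated library, 12 libraries in all.

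NAT10 transfers an acetyl group from acetyl-CoA to the N4 position of cytidine, which gives N4-acetylcytidine (ac4C). Its established substrates are the small-subunit ribosomal RNA, within the small-subunit processome of the nucleolus, and serine and leucine tRNAs, for which THUMPD1 is the adaptor. Borohydride reduces ac4C, and reverse transcriptase then places a base opposite the reduced cytidine that is read as T. A C-to-T change in treated RNA that is missing from untreated RNA is the signal the assay looks for, and C read as A or G is not counted toward it.

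A list belongs to a whole group, since the replicates were called jointly. Mismatched reads were absent from untreated RNA at all listed sites, each treated library had at least 3, and the lowest median mismatch level of a listed site was 1.00% in both tables. A listed site thus has no mismatch in untreated RNA by selection. Over the listed sites a treated library held 295737 to 305063 reads in the control and 214580 to 223988 in NAT10 knockdown. The untreated libraries held 199984 to 244199 and 178646 to 198453 reads. Depth outside the listed sites was not analysed here. The tables hold no expression values, so neither the markers of the cell line nor the degree of NAT10 knockdown was examined here.

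Both NAT10 sites are cytidines on the plus strand, the strand on which RefSeq places the gene. In GRCh38.p14 the gene spans 41280 bases, from 34105629 to 34146908 on chromosome 11. The control site lies 21895 bases from the start of the gene, at 53.0% of the span. The NAT10 knockdown site lies 40490 bases from the start, at 98.1% of the span and 789 bases from its end. The sites are 18595 bases apart. No other protein-coding gene covers either position. Whether the sites fall in exons, coding sequence or untranslated region, and the sequence around them, was not analysed here. Neither position was listed in the other table, and absence from a list is not a measured level of 0.

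The depth at the sites was examined first, because it sets the error of every level. At the control site the treated libraries had 80, 114 and 87 reads in replicates 1, 2 and 3, and the untreated libraries had 59, 94 and 59 reads. At the NAT10 knockdown site the treated libraries had 317, 407 and 655 reads, and the untreated libraries had 399, 412 and 604. The control site was thus covered by 281 treated and 212 untreated reads, and the NAT10 knockdown site by 1379 and 1415. These are different positions in 1 transcript, so the depths give no measure of NAT10 mRNA in either group.

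**Figure D1:**
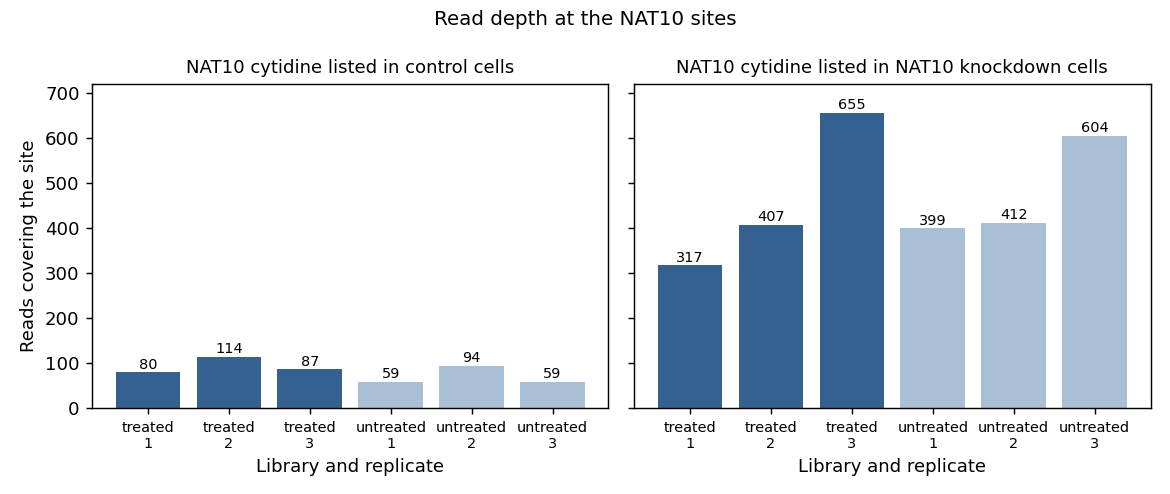
Reads covering each NAT10 cytidine (vertical axis, counts) in the treated (dark bars) and untreated (light bars) libraries of replicates 1 to 3, with the control site on the left and the NAT10 knockdown site on the right. The control site had 59 to 114 reads a library and the NAT10 knockdown site had 317 to 655.

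By depth the control site ranked 329 among the 394 cytidines of its table, where the median was 660 treated reads. The NAT10 knockdown site ranked 26 among 292 cytidines, against a median of 667.5 treated reads. Treated reads exceeded untreated reads at the control site in every replicate, with a ratio of 1.35 ± 0.131 (SD, n = 3). At the NAT10 knockdown site the ratio was 0.956 ± 0.148 (SD, n = 3), and it was above 1 in replicate 3 alone, at 1.08. Over all reads of the site, the ratio was 1.33 at the control site, where the median cytidine of the table had 1.48 (quartiles 1.21 and 1.78). A higher ratio was found at 254 of the 394 control cytidines. The ratio was 0.975 at the NAT10 knockdown site, where the median cytidine had 1.22 (quartiles 1.02 and 1.45), and 235 of the 292 cytidines had a higher ratio.

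The bases read at the control site were then examined. In the treated libraries 3 of 80, 3 of 114 and 6 of 87 reads had T. No read had A or G in any of them. In the untreated libraries 0 of 59, 0 of 94 and 0 of 59 reads differed from C. All 12 mismatched reads of this site were therefore C-to-T changes, and they were found in every treated replicate.

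The C-to-T level, the percent of all reads of a library that have T, was 3.75% in control replicate 1 (95% Wilson interval 1.28 to 10.5). It was 2.63% in replicate 2 (0.899 to 7.45) and 6.90% in replicate 3 (3.20 to 14.2). The mean was 4.43% ± 2.21 (SD, n = 3), and over all treated reads the level was 4.27% (2.46 to 7.31). The intervals of the replicates overlap. Reads with T did not differ between the treated libraries beyond counting error (two-sided Fisher's exact p = 0.337, Benjamini-Hochberg adjusted over 4 tests 0.337). Counting error alone would give an SD of 2.11 percentage points at this depth. No listed site has under 3 mismatched reads in a treated library, and here all were T, with exactly 3 in replicates 1 and 2. Lower counts were thus cut off by the listing. Neither the test nor the SD can therefore show that the replicates agree. With 0 of 281 treated reads, the level of A or of G at this site may be up to 1.07%.

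The untreated libraries limit this result. A count of 0, read as an upper limit of 3 reads, allows a level of up to 5.08% in untreated replicates 1 and 3 and up to 3.19% in replicate 2. The treated levels of replicates 1 and 2 were lower than the limit of the matching untreated library, and that of replicate 3 was higher. Pooled, the 212 untreated reads without a T give a limit of 1.42%, and each treated level exceeded it. Intervals and limits cover counting error only. The site was listed on these same reads, for mismatches in treated and none in untreated RNA. The p-values of treated against untreated RNA below, at this site and at the NAT10 knockdown site, therefore describe the listed reads and are no independent evidence of a response to NaBH4. In single replicates, treated and untreated reads did not pass the threshold in two-sided Fisher's exact test, with p = 0.262, 0.253 and 0.0813 in replicates 1, 2 and 3 and adjusted p = 0.314, 0.314 and 0.244 over 6 tests.

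Over the replicates of the control site, T was higher in treated than in untreated RNA in 3 of 3 pairs, by 4.43 percentage points. Untreated RNA has no mismatch by the listing, so the direction is fixed and 1 T read makes a pair higher. A T read in every treated library was found at 215 of 394 control cytidines, or 54.6%. The quasi-binomial model, fitted to each cytidine with at least 10 reads in every library, gave an adjusted p of 0.0206 for this site. In the same fit 192 of 389 control cytidines, all listed by the same criteria, had an adjusted p under 0.05, a background of 49.4%. In the fits of both tables the untreated libraries, 0 by the listing, add degrees of freedom but no spread, which lowers p. At the control site the variance relative to counting error was 0.567 in this fit, and 1.13 from the treated libraries alone. The two-sided exact permutation test on the replicate levels gave p = 0.1, below which 3 against 3 replicates cannot go. Both this test and the quasi-binomial model ignore the pairing. The quasi-binomial value was above the threshold with 1 replicate left out, with adjusted p = 0.164, 0.115 and 0.0531 without replicate 1, 2 or 3. It was also above the threshold in the quasi-binomial model when the spread was not allowed under counting error (adjusted p = 0.101) and when it was taken from the treated libraries alone (adjusted p = 0.191). In the last 2 settings 0 of 389 cytidines passed, with 184 and 109 at an unadjusted p under 0.05. With the replicate as a block, in an exact conditional test over reads, the adjusted p was 0.0128, against a background of 41.4%.

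The site listed in NAT10 knockdown had a different make-up. Its treated replicate 1 had 5 reads with T, 0 with A and 1 with G among 317 reads. Replicate 2 had 1 read with T, 6 with A and 0 with G among 407 reads. Replicate 3 had 3 reads with T, 1 with A and 1 with G among 655 reads. T was thus the most frequent other base in replicates 1 and 3, and A in replicate 2.

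Of the 18 mismatched reads at this site, 9 had T, or 50% (95% Wilson interval 29.0 to 71.0), 7 had A and 2 had G. T made up 83.3%, 14.3% and 60.0% of the mismatched reads of replicates 1, 2 and 3. Fisher's exact test of this share between the 3 libraries, chosen after the values were seen, gave a two-sided p of 0.0555. No base other than C was read in the untreated libraries, with 0 of 399, 0 of 412 and 0 of 604 reads.

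The C-to-T level of the NAT10 knockdown site was 1.58% in replicate 1 (95% Wilson interval 0.676 to 3.64), 0.246% in replicate 2 (0.0434 to 1.38) and 0.458% in replicate 3 (0.156 to 1.34). The mean was 0.760% ± 0.715 (SD, n = 3), so the SD was nearly as large as the mean, and over all treated reads the level was 0.653% (0.344 to 1.24). Counting error alone would give an SD of 0.393 percentage points. Reads with T did not differ between the libraries beyond counting error at the adjusted level (two-sided Fisher's exact p = 0.0925, adjusted over 4 tests 0.337). The C-to-A level was 0.542% ± 0.811 and the C-to-G level 0.156% ± 0.158 (SD, n = 3). Taken as any base other than C, the mismatch level was 1.46% ± 0.608 (SD, n = 3), and it did not differ between the libraries either (exact p = 0.224, adjusted 0.337). The listing cuts off libraries with under 3 mismatched reads, so this last test cannot show that the replicates agree.

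**Figure D2:**
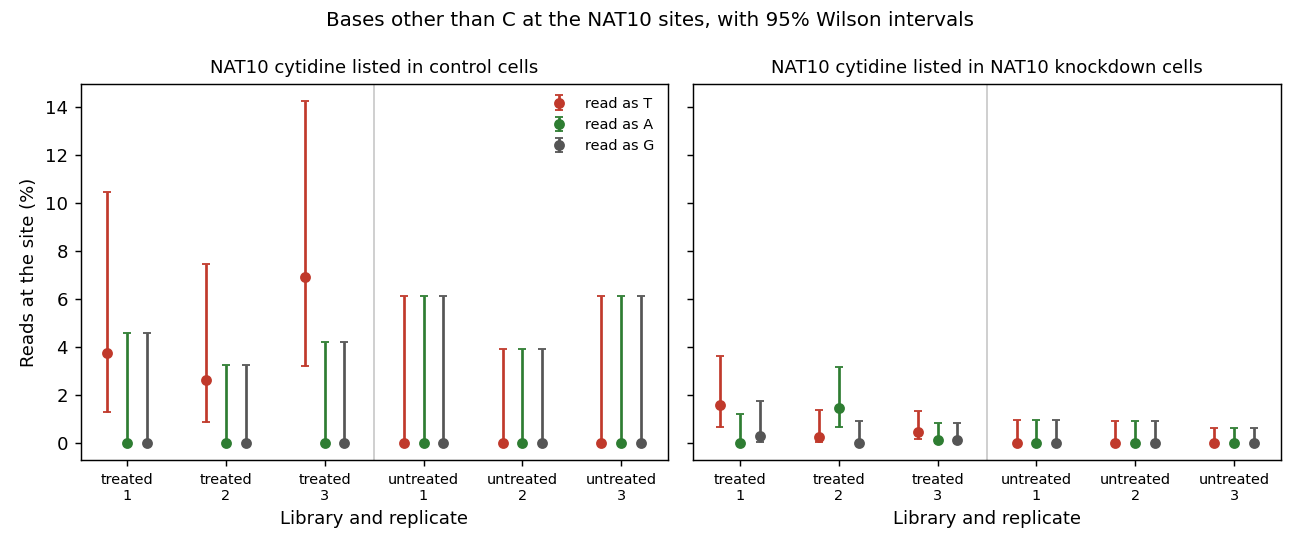
Percent of reads with T (red), A (green) or G (grey) at each NAT10 cytidine (vertical axis) in treated and untreated libraries of replicates 1 to 3, with the control site on the left and the NAT10 knockdown site on the right; bars are 95% Wilson intervals. At the control site only T was read, at 2.63% to 6.90% of treated reads, while at the NAT10 knockdown site replicate 2 had more A (1.47%) than T (0.246%), and every untreated value is 0.

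At this site the untreated limits were lower, at 0.752%, 0.728% and 0.497% in replicates 1, 2 and 3. The C-to-T level of replicate 1 was above its own limit, and those of replicates 2 and 3 were under theirs. Pooled, the 1415 untreated reads without a T give a limit of 0.212%, and each treated C-to-T level exceeded it. In replicate 2 the level was 0.246%, from 1 T read. That level lies under 0.271%, the upper end of the Wilson interval of these untreated reads. For replicate 2 the outcome thus depends on which limit is used. In single replicates, two-sided Fisher's exact test gave p = 0.0167, 0.497 and 0.251, with adjusted p = 0.1003, 0.497 and 0.314 over the 6 tests.

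Over the replicates of the NAT10 knockdown site, T was higher in treated RNA in 3 of 3 pairs, by 0.760 percentage points. Here too the listing fixes the direction, and a T read in every treated library was found at 149 of 292 cytidines, or 51.0%. The difference did not pass the threshold in the quasi-binomial model, with an adjusted p of 0.0744, in a fit where 135 of 289 cytidines passed, a background of 46.7%. The two-sided exact permutation p was 0.1, the smallest possible for that test. Again neither this test nor the model used the pairing. The exact conditional test over reads, with the replicate as a block, gave an adjusted p of 0.00876, under the threshold, against a background of 44.3%, but it counts reads and not samples as the units. Without replicate 1, 2 or 3 the C-to-T difference was 0.352, 1.02 and 0.911 percentage points. No difference between the groups was tested, since the positions are not the same.

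The sites were set against the other cytidines of their own table. The control site ranked 22 of 394 by mean C-to-T level, where the median was 1.04% (quartiles 0.519 and 1.71). By mismatch level with any base it ranked 72, against a median of 2.10%. It was 1 of 71 control cytidines, or 18.0%, at which every mismatched read of the treated libraries had T. The listing gives each treated library at least 3 mismatched reads. Such a site is therefore always among the 113, or 28.7%, with at least 3 T reads in each treated library. The 12 mismatched reads of the NAT10 site were close to the median of 13 a site. In replicates 1 and 2 it had 3 mismatched reads, the lowest number of any listed site. A library with that number was found at 280 of the 394 control cytidines.

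The NAT10 knockdown site ranked 188 of 292 by mean C-to-T level, where the median was 1.06% (quartiles 0.432 and 1.95), and 219 by mismatch level with any base. It was 1 of 149 cytidines of its table, or 51.0%, with a T read in every treated library. It was not among the 57 cytidines, or 19.5%, whose mismatched reads all had T. It was 1 of 115 cytidines, or 39.4%, at which no single base led in all 3 treated libraries. In the control table this held for 154 of 394 cytidines, or 39.1%, while T led in every treated library at 148, or 37.6%, NAT10 among them.

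Shallow sites need a higher level to reach 3 mismatched reads in each library, so sites of like depth were also considered. There were 83 other control cytidines within 1.5 times the depth of the NAT10 site, with 199 to 420 treated reads and a median C-to-T level of 1.30%. Of these, 9 had a higher level than NAT10. In NAT10 knockdown there were 75 such cytidines, with 920 to 2008 treated reads and a median of 0.828%, and 42 of them had a higher level. These levels count T alone, and at only 18.0% of control cytidines did every mismatched read have T. A site with T alone ranks above one of mixed bases at the same mismatch level. By mismatch level with any base the control site ranked 72 of 394, and this rank was not computed at like depth.

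**Figure D3:**
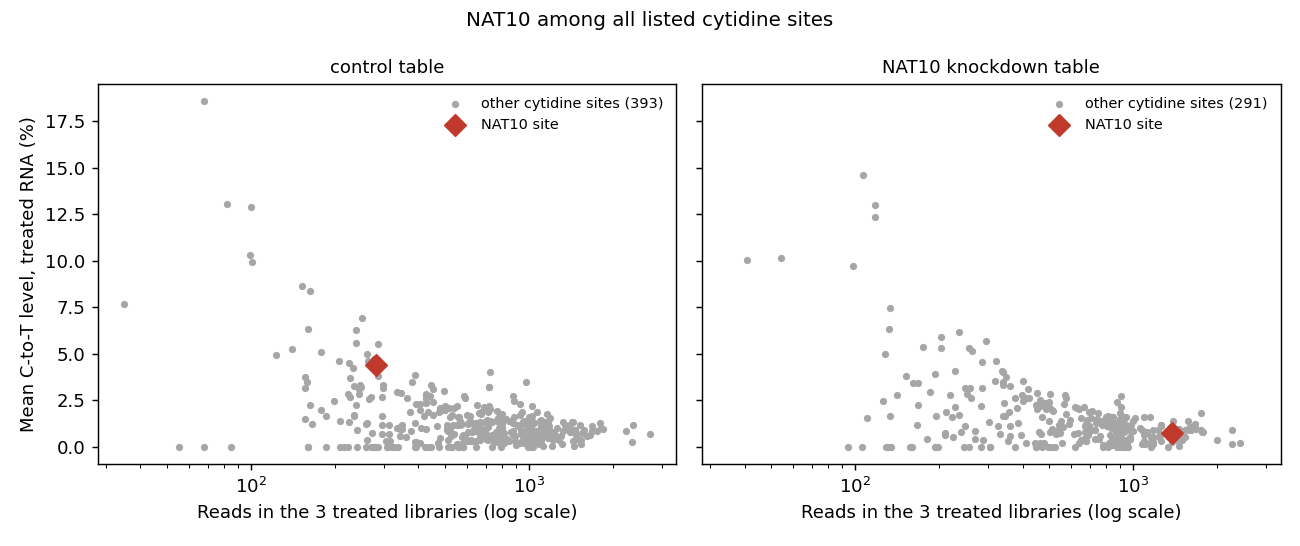
Mean C-to-T level over the 3 treated libraries (vertical axis, percent) against the reads of these libraries at the site (horizontal axis, log scale) for every listed cytidine (grey points), with NAT10 as a red diamond. The control site (left, 281 reads, 4.43%) sits near the upper edge of sites of like depth, and the NAT10 knockdown site (right, 1379 reads, 0.760%) sits among the other deep sites.

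The cytidines most like each NAT10 site were those with the smallest summed difference in the percent of T, A and G over the 3 treated libraries, 9 values in all. For the control site these were a cytidine in HS1BP3 at position 20651056 on chromosome 2 and the neighbouring cytidines at 9787704 and 9787703 on chromosome 11 in SBF2, which encodes a regulator of membrane traffic. HS1BP3 had 5 of 123, 4 of 135 and 6 of 130 treated reads with T and none with A or G, a summed difference of 2.93 percentage points from NAT10. The SBF2 cytidines had C-to-T levels of 3.23% ± 0.513 and 3.25% ± 0.536 (SD, n = 3) at summed differences of 3.74 and 4.13 percentage points, and being adjacent they share reads.

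For the NAT10 knockdown site the most like were RPSA2 at position 23827781 on chromosome 19, AURKB at 8207814 on chromosome 17 and LIF at 30243901 on chromosome 22. RPSA2 had 4, 1 and 0 reads with T and 0, 4 and 1 with A in replicates 1, 2 and 3, a summed difference of 2.95 percentage points. It is a close copy of the ribosomal protein gene RPSA, so its reads may come from either. AURKB, a kinase of the mitotic spindle, had 2, 1 and 3 reads with T and 0, 3 and 2 with A. LIF, a cytokine of the interleukin-6 family, had 4, 2 and 3 reads with T and 0, 2 and 0 with A. These cytidines were chosen by the same reads, so what they share with NAT10 follows from the choice.

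The genes that act with NAT10 were examined for listed sites. THUMPD1, its tRNA adaptor, had no site in either table. Of 45 genes of the small-subunit processome, 5 had a site of any base in the control table and 6 in the NAT10 knockdown table. Among all protein-coding genes the background was 5.52% with a site in the control and 4.16% in NAT10 knockdown, expressed or not, and listing needs reads. A cytidine was listed in HEATR1 and NOP14 in control cells, where 1.80% of all protein-coding genes had one. BMS1 had one in the NAT10 knockdown table, where the background was 1.27%.

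The cytidines of these processome genes differed in the base that was read. At HEATR1, a factor of ribosomal RNA transcription and processing, 186 treated reads held 3 with T and 10 with A, and the C-to-T level was 1.64% ± 2.84 (SD, n = 3). At NOP14, a nucleolar processome protein, 553 treated reads held 1 with T and 10 with G, a level of 0.185% ± 0.321 (SD, n = 3). At BMS1, a GTPase of small-subunit assembly, 771 treated reads held 11 with T, 0 with A and 4 with G, a level of 1.40% ± 0.459 (SD, n = 3). T alone, as at the control site of NAT10, was thus read at none of these 3 cytidines. Cytidines with T alone were a minority of each table, 18.0% for control cells and 19.5% for knockdown cells. With shares this low, finding none among 3 cytidines does not set these genes apart.

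Among 29 other enzymes that write or erase RNA modifications, ALKBH5, NSUN2 and PUS1 had sites in the control table and PUS1 in the NAT10 knockdown table, which is 10.3% and 3.45% of these enzymes against the backgrounds of 5.52% and 4.16% above. None of these sites was a cytidine, in tables where 29.1% and 29.2% of all sites were. The enzymes had so few sites that finding no cytidine among them does not set them apart. ALKBH5 is an eraser of N6-methyladenosine, NSUN2 a cytosine-5 methyltransferase and PUS1 a pseudouridine synthase. No gene of these lists had a cytidine site in both tables, but only HEATR1, NOP14 and BMS1 had one in either. NAT10 is in none of these lists and was chosen for its sites. It was 1 of 21 protein-coding genes with a cytidine in both tables. That is 5.82% of the 361 control genes and 8.24% of the 255 genes of NAT10 knockdown. With shares this low, finding none among so few genes makes no contrast with NAT10.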

How the data were processed

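Reads were trimmed by the authors with fastp 0.23.1, duplicates were removed by the 8-base molecular identifiers, bases were compiled with JACUSA, and sites were tested with proprietary software. The submitters' processing notes also name GRCh38, STAR 2.7.6a and featureCounts. The deposited counts are reads per base and library at each listed site, and the deposited fraction is mismatched over all reads, which the counts bore out at 100% of sites within 1e-06. The deposited p-value of a site came from the authors' joint test and was not used for any result here. Base-count columns were used for every value.

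Members and gene lists were chosen with earlier results of these data known. The genes named were all sites in NAT10, the 3 most like cytidines of each table, and the listed genes of the small-subunit processome, THUMPD1 and RNA modification enzymes. Genes came from RefSeq spans of GRCh38.p14, and all 45, 1 and 29 listed genes matched. Sites lay on the strand of their gene in 99.4% of control and 99.9% of NAT10 knockdown cases. Cytidines covered by 10 or more reads in all libraries of a group were fitted with a quasi-binomial model and F test in Python 3.11.15 with scipy 1.17.1, and p was adjusted by Benjamini-Hochberg at 0.05. Tests were tried on simulated data in which sites were not selected as the listing selects them. The trial therefore gives no error rate for the listed sites. Treated and untreated libraries are aliquots of 1 sample, which gives the pairing. Depth per library and site is given with each value, and intervals are 95% Wilson intervals.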

Additional observations from a re-analysis of the deposited data

Results flagged for a closer look

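At the NAT10 knockdown site, 9 treated reads had A or G in place of C, where the untreated libraries had 0 of 1415 reads with either. This signal lies outside the C-to-T measurement. Of these reads 6 were A reads of replicate 2, and the excess over untreated RNA is set by the listing. Only 57 of the 292 NAT10 knockdown cytidines, or 19.5%, had T in every mismatched read, so treated reads with A or G are usual there. The groups of 3 libraries were too small to test a single library as an outlier.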

How the results depend on the processing

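The 6 results were recomputed to give 46 values under other settings. Of these, 27 stayed on the same side of the threshold, within 1.5 times the count or within 1 SD of the level. None reversed, but none could, because the listing fixes the direction. With 3 replicates, a mean with 1 left out always lies within 1 SD, so those values were bound to stay. The tally of 27 is therefore no measure of how stable the results are. Within that margin the mean C-to-T level without 1 replicate was 3.19% to 5.32% at the control site and 0.352% to 1.02% at the NAT10 knockdown site. In the quasi-binomial model the control site, at 4.43 percentage points, fell short of the threshold with the spread from the treated libraries alone (4.43, adjusted p = 0.191) and with the spread not under counting error (4.43, adjusted p = 0.101). It also did so without each replicate, at 3.19 to 5.32 percentage points. The NAT10 knockdown site, at 0.760 percentage points, was 1.46 with any other base counted, where a low p is fixed by the listing, which asks for such reads in every treated library and none in untreated RNA. With T counted it stayed short of the threshold without each replicate, at 0.352 to 1.02 percentage points. A quasi-binomial fit with the replicate as a block leaves no spread, because every untreated level is 0, and could not be made. In its place the replicate block was used in an exact conditional test over reads, chosen after seeing the data. With this block in the exact test the control difference of 4.43 percentage points stayed under the threshold (adjusted p = 0.0128), with 161 cytidines called, and the NAT10 knockdown difference of 0.760 passed (adjusted p = 0.00876), with 128 called. The count of called cytidines was 0 in both tables with either of the other spreads, with 184 and 109 (control) and 131 and 80 (NAT10 knockdown) at an unadjusted p under 0.05. With any other base 386 of 389 control cytidines and 286 of 289 of NAT10 knockdown passed, as the listing fixes. Without 1 replicate it was 71 to 97 in the control and 49 to 68 in NAT10 knockdown, with fewer samples. At the control site 59 untreated reads allow a level of up to 5.08%.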
